A study of Mus musculus with 5 samples.

Results

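The collagen genes encode the chains of the triple-helical proteins of the extracellular matrix. They were taken as every gene of the deposited feature list whose symbol reads Col, 1 or 2 digits, a, and 1 or 2 digits, without antisense or predicted entries. This gave 44 of 27998 genes. By type, 11 were fibrillar chains, 8 basement membrane chains (types IV, XV and XVIII), 6 type VI chains, 9 fibril-associated chains (FACIT), 3 network-forming chains of types VIII and X, and 3 transmembrane chains beside Col17a1. The remaining members were the hemidesmosome chain Col17a1, the anchoring fibril chain Col7a1 and 2 others. Of the 44, 28 reached 50 counts per 1000000 (CPM) in at least 1 library of 1 of the 9 cell classes described here, counting only classes with at least 30 cells in that library.

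Single-cell transcriptomes came from 5 libraries of mouse mammary tissue, made by 3′ droplet sequencing with unique molecular identifiers (UMIs). All mice carried Krt14cre and 2 floxed Trp53 alleles. The Krt14 promoter drives Cre in epithelium that expresses Krt14, so stromal cells are not its target. BPK mice had the Brca1 genotype wt/flox, and PK mice had Brca1 wt/wt. Glands had been injected through the duct 12 times with 4NQO, a quinoline carcinogen, or with its PBS/PEG vehicle. The libraries were 1 of BPK vehicle, 1 of PK 4NQO, 2 of BPK 4NQO (replicates 1 and 2) and 1 of a BPK tumor that had arisen after 24 injections. The labels do not give ages, nor whether the BPK 4NQO libraries came from separate animals. P-values for comparisons of conditions thus measure only the spread between those libraries, which may be technical. Comparisons of cell classes or subsets take their spread from the 4 gland libraries, which differ in condition.

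Collagen chains assemble as trimers in the secretory pathway before they are exported. Fibrillar collagens (types I, III, V and XI) build the tensile fibers of connective tissue, and FACIT members coat those fibers. Type IV collagen forms the sheet-like network of basement membranes, which lie under mammary epithelium and around vessels. Type VI collagen forms beaded filaments from trimers that join the α1, α2 and a longer α3 chain. Collagen XVII spans the membrane of basal epithelial cells in hemidesmosomes, the rivets that tie keratin filaments to the basement membrane, and collagen VII anchors that membrane to the stroma below.

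Total depth ran from 27383717 to 64169843 UMIs per library, and 31434 of 34526 barcodes were kept. Cells were sorted into classes by marker genes that include no collagen. Every marker set was highest in its own class at its own level of the gate, except that 7 of 8 luminal alveolar markers were. The gate used these same markers, so this is largely fixed by it and is no independent check of the classes. Over all classes, 3 of 8 basal and 6 of 8 luminal alveolar markers were highest in their class. BPK 4NQO replicate 2 stood apart: at most 2 of its cell barcodes recurred in another library, while the other pairs of libraries had 26 to 107 in common. Its collagen counts were also higher, so values are given for each library. The level of fibrillar collagen in T and NK cells, which should lack it, serves as background: Col1a1 was 0, 0, 2.69 and 89.0 CPM there in BPK vehicle, PK 4NQO and BPK 4NQO replicates 1 and 2. Gland values below keep that order of libraries. Levels are CPM of the counts summed over the cells of a class in a library. Such 3′ counts carry no length scaling, and capture may differ between genes, so levels are compared for the same gene.

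Among the 8 classes compared, fibroblasts, pericytes, endothelial cells and basal epithelial cells had the highest collagen levels. All 44 members together took 21620 to 43840 CPM in fibroblasts, 1510 to 7858 in pericytes, 1196 to 3370 in endothelial cells and 1848 to 4171 in basal cells of the 4 gland libraries. The range was 268 to 595 CPM in luminal alveolar cells, 311 to 602 in luminal hormone-sensing cells, 36.7 to 234 in macrophages and 34.9 to 366 in T and NK cells. Cells gated by Schwann markers, which had at least 30 cells in only 2 libraries and were not tested, had 8874 CPM in PK 4NQO (48 cells) and 15540 in BPK 4NQO replicate 2 (64 cells), above the pericytes of the same libraries. Fibrillar chains made up 81.2% to 84.8% of the collagen UMIs of fibroblasts. Basement membrane chains made up 77.7% to 80.3% in endothelial cells, while basal cells had 37.8% to 40.4% of basement membrane and 29.1% to 43.6% of FACIT chains. Of the 28 members that reached 50 CPM, 15 had their highest gland mean over the 8 classes in fibroblasts, 8 in basal cells, 3 in endothelial cells, 1 in pericytes (Col18a1) and 1 in hormone-sensing cells (Col8a1).

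**Figure D1:**
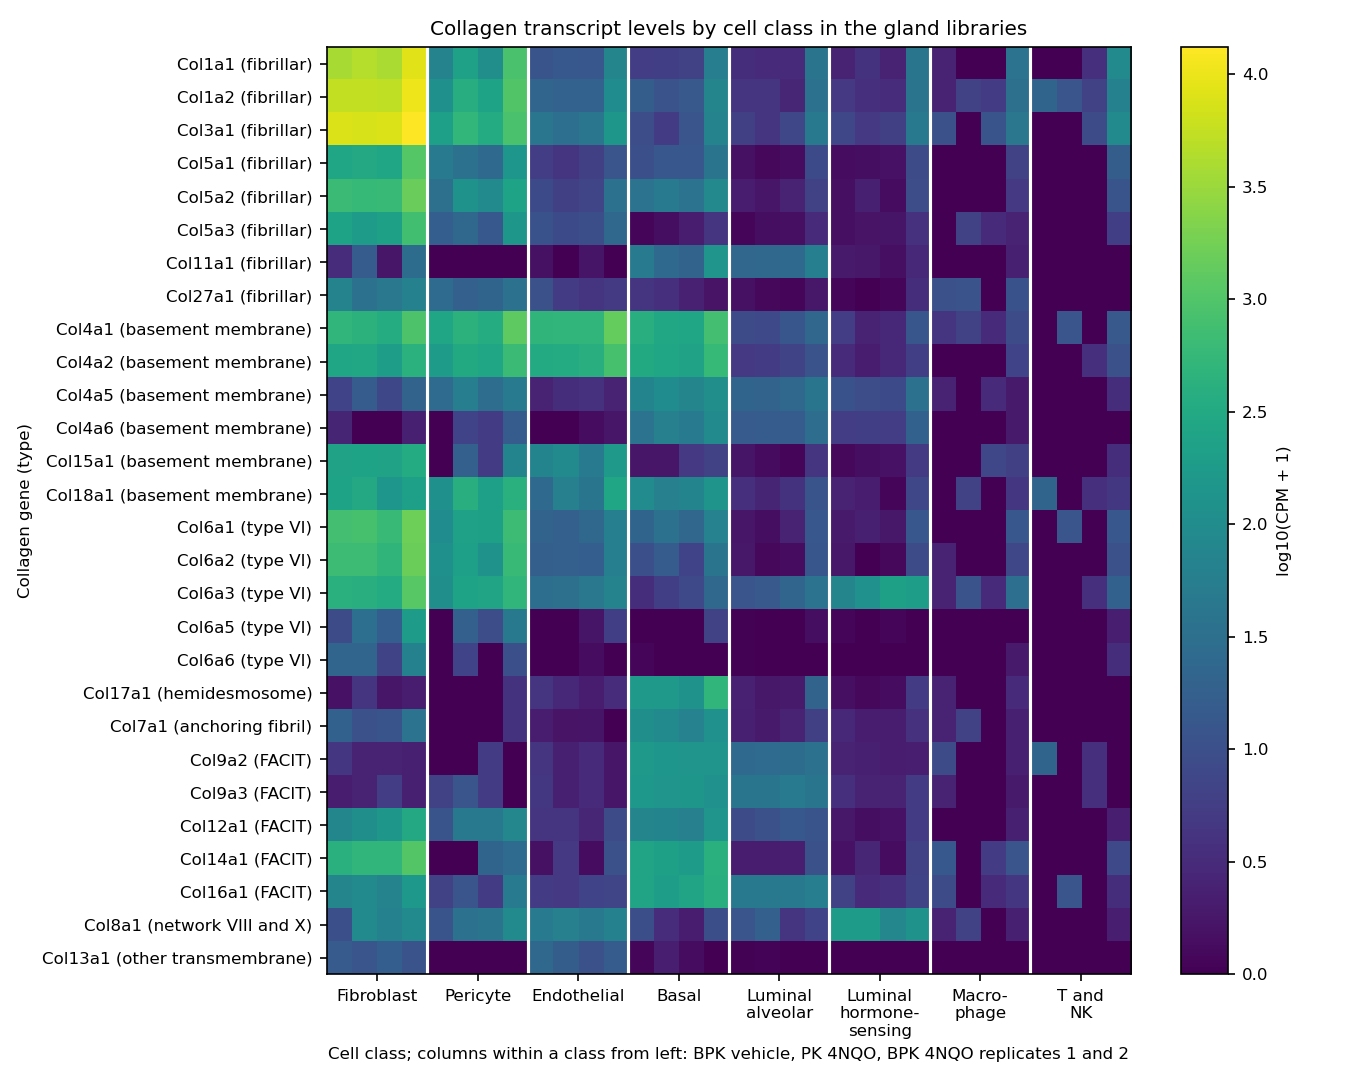
Each row is a collagen gene with its type and each column a gland library within a cell class; color gives log10(CPM + 1). Fibrillar rows other than Col11a1 are brightest in fibroblasts, and the Col4a1 and Col4a2 rows are bright in 4 classes. The Col9a2, Col9a3, Col16a1 and Col17a1 rows are brightest in basal cells.

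Each class was tested against the mean of the other 7 on sums per library and class, with the library as a block, and 31 of the 44 members could be tested. In edgeR's quasi-likelihood test with Benjamini-Hochberg adjustment over 12142 genes, fibroblasts were higher for 25 of the 31 and lower for 2 (all genes: 27.6% higher and 19.8% lower). Basal cells were higher for 18 and lower for 6 (32.5% and 18.4%). Pericytes were higher for 19 and lower for none (16.5% and 11.4%). In pericytes 1 member was lower at an unadjusted p under 0.05, and DESeq2 called 19 members in either direction. Endothelial cells were higher for 9 and lower for 9 (28.4% and 16.6%). Luminal alveolar cells were higher for 9 and lower for 14 (34.1% and 20.1%), and hormone-sensing cells were higher for 4 and lower for 18 (34.1% and 22.9%). Macrophages were higher for 1, the fibrillar chain Col27a1, and lower for 18 (25.3% and 19.4%). T and NK cells were higher for none and lower for 22 (19.3% and 24%). Of the members in T and NK cells, none was higher at an unadjusted p under 0.05, and DESeq2 called 21 in either direction. Many of the low classes were at or near 0 counts, so the size of such a fitted fold change depends on a small prior count, and the levels below carry the comparison.

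Fibroblasts held the fibrillar chains of types I, III and V. The α1 chain of type III collagen, Col3a1 (chromosome 1, 45311538 to 45349706 on the plus strand of GRCm38), was at 8144, 7459, 7896 and 13230 CPM in fibroblasts. In pericytes it was at 214, 539, 343 and 868 CPM. The 2 classes did not overlap, and replicate 2 was highest in both. Col1a1 (chromosome 11, 94936224 to 94953042, plus strand), the α1 chain of type I collagen, was at 3800, 4570, 4027 and 8596 CPM in fibroblasts and at 69.6, 227, 107 and 868 in pericytes. Its partner Col1a2 was at 5492, 5537, 5247 and 10380 CPM in fibroblasts. The ratio of Col1a1 to Col1a2 counts stayed within 0.692 to 0.828 in the fibroblasts of the 4 libraries. In luminal cells of replicate 2, Col1a1 was at 37.3 CPM (alveolar) and 38.9 CPM (hormone-sensing), below the 89.0 CPM of its T and NK cells. The T and NK cells were shallower. By counts, Col1a1 had 90 in 495 alveolar, 96 in 508 hormone-sensing and 74 in 523 T and NK cells.

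The promoter of Col3a1 is printed because it is the member with the highest level and holds the letters TATAAA. The sequence is the 250 bases before the start in RefSeq's table for GRCm38.p6, on the gene's strand, chr1:45311288-45311537, with TATAAA in capitals.
Col3a1: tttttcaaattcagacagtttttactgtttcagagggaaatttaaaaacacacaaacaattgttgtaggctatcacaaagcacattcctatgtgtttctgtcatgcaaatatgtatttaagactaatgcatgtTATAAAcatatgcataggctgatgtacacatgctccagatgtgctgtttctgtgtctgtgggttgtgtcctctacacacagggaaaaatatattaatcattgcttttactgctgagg
Of 32851 promoters of that length, 12.4% held TATAAA on either strand, and 5 of the 38 collagen windows did, which stand for 35 matched members. A match is only a run of letters.

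The type V chains, which join type I fibrils and limit their width, likewise had their highest mean over the 8 classes in fibroblasts. Col5a1 was at 278, 301, 276 and 1082 CPM in fibroblasts, with 24.8 to 147 in pericytes. Col5a2 was at 638, 574, 620 and 1503 CPM and Col5a3 at 241, 184, 222 and 739 CPM in fibroblasts. Fibroblasts exceeded pericytes without overlap for all 3 chains. Schwann-gated cells of PK 4NQO and replicate 2 had 577 and 1616 CPM of Col5a2, close to the fibroblasts of these libraries. Col27a1, a fibrillar chain of cartilage and some other tissues, was at 69.2, 33.9, 43.6 and 63.6 CPM in fibroblasts and 17.0 to 33.0 in pericytes. In macrophages, where its call was higher than the mean of the other classes, Col27a1 was at 9.35, 10.5, 0 and 9.96 CPM, below every fibroblast and pericyte value.

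Among the 8 classes, Col11a1, a fibrillar chain best known from cartilage, had its highest means in basal and luminal alveolar cells. Schwann-gated cells had more, at 131 and 233 CPM in PK 4NQO and BPK 4NQO replicate 2. It was at 50.3, 24.2, 19.6 and 139 CPM in basal cells and 21.9, 23.3, 24.9 and 60.0 in luminal alveolar cells. These 2 classes overlapped. Hormone-sensing cells had 0.478 to 2.02 CPM and fibroblasts 0.764 to 27.5.

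Basement membrane chains were spread over 4 classes. Col4a1 and Col4a2, the ubiquitous chains of type IV collagen, were called higher in fibroblasts, pericytes, endothelial cells and basal cells and lower in the other 4 classes. Col4a1 was at 500, 518, 522 and 1379 CPM in endothelial cells, at 273, 443, 351 and 1252 in pericytes and at 520, 444, 351 and 929 in fibroblasts. In basal cells Col4a1 was at 392, 287, 268 and 771 CPM. These 4 classes overlapped with their neighbors in the order, while luminal alveolar cells, with 7.24 to 22.4 CPM, lay below all of them. Col4a2 was at 333, 339, 385 and 828 CPM in endothelial cells and at 316, 265, 233 and 571 in basal cells.

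The 2 genes lie head to head on chromosome 8 and share their first bases. Col4a1 runs on the minus strand from 11312826 down to 11198423 and Col4a2 on the plus strand from 11312805 to 11449287. The 22 bases that both transcripts cover, chr8:11312805-11312826 of GRCm38.p6 (RefSeq starts, plus strand), are printed because the 2 genes had the same direction in all 8 class tests. All bases are in capitals since all belong to both transcripts.
Col4a1 and Col4a2 shared start: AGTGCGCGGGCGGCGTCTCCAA
The count ratio of Col4a1 to Col4a2 was 1.08 to 1.35 in basal cells, 1.36 to 1.67 in endothelial cells, 1.35 to 1.98 in pericytes and 1.52 to 2.20 in fibroblasts. Ratios of basal cells and fibroblasts did not overlap, which is a description of 4 libraries each.

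Col4a5 and Col4a6, the other head-to-head pair, had starts 1343 bases apart on chromosome X and were mainly basal. In basal cells Col4a5 was at 70.2, 99.3, 74.3 and 108 CPM and Col4a6 at 35.9, 60.4, 46.9 and 92.2. Both were lower in luminal alveolar cells, at 19.8 to 38.9 CPM for Col4a5 and 14.4 to 29.0 for Col4a6, without overlap. In endothelial cells, where Col4a1 and Col4a2 were highest, Col4a5 was called lower and Col4a6 was not called. Pericytes had 26.8 to 56.8 CPM of Col4a5. Col4a4, a chain best known from kidney, reached 6.11 to 13.7 CPM in fibroblasts and was called higher there.

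Collagens XV and XVIII, the proteoglycan-type chains of basement membranes whose C-terminal parts are known as antiangiogenic fragments, differed in class. Col15a1 was at 240, 242, 238 and 345 CPM in fibroblasts and 51.6 to 166 in endothelial cells, without overlap. Basal cells had only 0.751 to 5.31 CPM of Col15a1. Col18a1 was at 118, 403, 215 and 405 CPM in pericytes, at 143 to 307 in fibroblasts, at 25.01 to 267 in endothelial cells and at 61.6 to 135 in basal cells. Pericytes, fibroblasts and endothelial cells overlapped for Col18a1.

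Type VI chains came together in fibroblasts and pericytes. In luminal cells with enough counts, the ratio of Col6a3 to Col6a1 counts was higher than in fibroblasts and pericytes. Capture may differ between the chains, so only the change of this ratio between classes is read. Col6a3 was at a higher level in hormone-sensing than in alveolar cells. In fibroblasts Col6a1 was at 779, 844, 617 and 1645 CPM, Col6a2 at 667, 666, 503 and 1562, and Col6a3 at 412, 396, 340 and 1138. Pericytes had 102 to 661 CPM of Col6a1, 118 to 610 of Col6a2 and 112 to 522 of Col6a3. The ratio of Col6a3 to Col6a1 counts was 0.469 to 0.692 in fibroblasts and 0.791 to 1.17 in pericytes. The alternative long chains Col6a5 and Col6a6 were also fibroblast genes, at 8.01, 30.7, 16.0 and 186 CPM and at 21.2, 21.0, 6.11 and 63.6 CPM.

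In hormone-sensing luminal cells, the estrogen and progesterone receptor-bearing cells of the duct, Col6a3 was at 73.9, 122, 223 and 195 CPM. Col6a1 was at 0.982, 1.30, 0.837 and 12.1 CPM in these cells, and Col6a2 at 0.859, 0, 0.239 and 8.10. In replicate 2, the single library with enough Col6a1 counts for a ratio, Col6a3 had 16.0 times the counts of Col6a1. In that library T and NK cells had 12.0 CPM of Col6a1, 9.62 of Col6a2 and 18.1 of Col6a3. For the first 2 chains this was close to the hormone-sensing CPM. T and NK cells were shallower, so similar CPM does not mean similar counts per cell. Col6a1 had 30 counts in 508 hormone-sensing cells and 10 in 523 T and NK cells. The part of background in these chains was not tested. Col6a3 was called higher (log2 fold change 2.18) and Col6a1 (-3.36) and Col6a2 (-3.65) lower than the mean of the other classes. Luminal alveolar cells had 11.2, 13.1, 21.2 and 36.0 CPM of Col6a3, below the hormone-sensing cells of every library. The ratio was above that of fibroblasts there too: Col6a3 had 3 to 14.3 times the counts of Col6a1 in the 3 libraries with enough counts. Basal cells differed from fibroblasts in the opposite direction, with Col6a3 at 0.120 to 0.343 times the counts of Col6a1.

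After thinning each cell to 1000 UMIs, a Col6a3 UMI was found in 7.89%, 10.6%, 18.8% and 17.9% of hormone-sensing cells, against 24.7%, 29.4%, 60.0% and 46.7% unthinned. In luminal alveolar cells the thinned shares were 1.25%, 1.06%, 1.92% and 3.60%. In T and NK cells they were 0%, 0%, 0.893% and 2.21%. Median depth was 3686.5 to 5451 UMIs in hormone-sensing cells, 3380 to 8775 in alveolar cells and 1093.5 to 1199 in T and NK cells. The fibroblast marker Dcn, a small proteoglycan that binds collagen, was at 316, 230, 350 and 398 CPM in hormone-sensing cells, while Col1a1 was at 1.47, 3.04, 1.55 and 38.9. In T and NK cells Dcn was at 0, 11.1, 13.4 and 38.5 CPM, below the hormone-sensing cells of every library, whereas Col1a1 of the hormone-sensing cells lay within the range of the T and NK cells. The part of free RNA in the Col6a3 values was not tested.

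Among the 8 classes tested, hormone-sensing cells also had the highest mean of Col8a1, a short network-forming chain of vessel walls and Descemet's membrane. Col8a1 was at 180, 190, 80.0 and 127 CPM there, against 11.2, 17.6, 3.20 and 5.80 in alveolar cells and 1.07 to 8.63 in basal cells. Hormone-sensing cells did not overlap the other 2 epithelial classes. They overlapped fibroblasts, which had 9.15 to 93.3 CPM. Endothelial cells had 46.2 to 63.7 CPM of Col8a1 and pericytes 10.7 to 90.1. Thinned shares of hormone-sensing cells with a Col8a1 UMI were 15.6%, 16.4%, 7.45% and 9.26%, and those of T and NK cells 0%, 0%, 0% and 0.276%. Replicate 1 was highest for Col6a3 and lowest for Col8a1, so the 2 genes did not follow each other across libraries.

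The promoters of Col6a3, Col8a1 and Col6a2 are printed because Col6a3 and Col8a1 were called higher in hormone-sensing cells and Col6a2 lower. Each is the 250 bases before the RefSeq start on the gene's strand of GRCm38.p6, with the GC box GGGCGG or its reverse complement in capitals. Col6a2 has more than 1 RefSeq start, and the window at the start of the GENCODE gene was taken. The positions are chr1:90843972-90844221, chr16:57754738-57754987 and chr10:76623631-76623880, all on the minus strand.
Col6a3: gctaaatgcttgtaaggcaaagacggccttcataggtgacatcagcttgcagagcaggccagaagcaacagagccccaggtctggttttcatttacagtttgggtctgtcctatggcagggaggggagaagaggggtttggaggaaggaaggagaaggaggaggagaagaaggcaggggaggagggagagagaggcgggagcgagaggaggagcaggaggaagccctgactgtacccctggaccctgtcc
Col8a1: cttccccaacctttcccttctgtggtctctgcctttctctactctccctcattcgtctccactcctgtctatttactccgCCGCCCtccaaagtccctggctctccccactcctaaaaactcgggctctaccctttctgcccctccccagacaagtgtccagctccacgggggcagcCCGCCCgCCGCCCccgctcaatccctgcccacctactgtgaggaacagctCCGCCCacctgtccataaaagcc
Col6a2: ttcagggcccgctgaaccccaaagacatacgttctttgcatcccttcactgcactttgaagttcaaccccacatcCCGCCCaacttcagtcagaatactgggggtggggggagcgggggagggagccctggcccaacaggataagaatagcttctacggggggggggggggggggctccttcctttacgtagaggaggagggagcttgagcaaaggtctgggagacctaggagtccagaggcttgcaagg
The Col8a1 window held 4 GC boxes, the Col6a2 window 1 and the Col6a3 window 0. GC boxes stood in 22 of 38 collagen windows and in 32.7% of all 32851 promoters, and CCAAT stood in 13 of 38 and 33.8%. None of the 3 printed windows held TATAAA or CCAAT, and these letters show no binding.

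**Figure D2:**
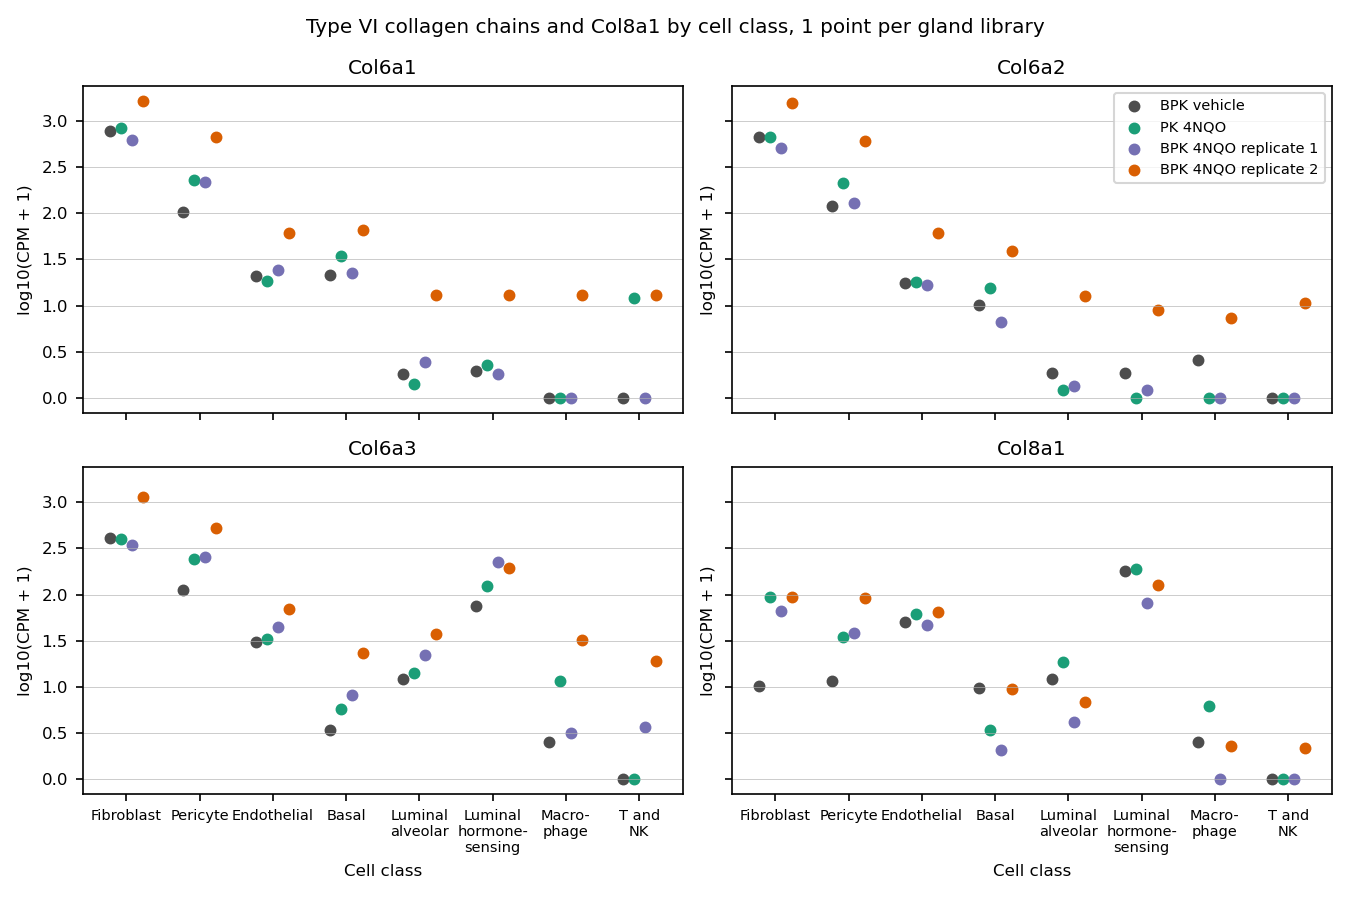
Points are log10(CPM + 1) of a gland library in a cell class, for Col6a1, Col6a2, Col6a3 and Col8a1. Hormone-sensing cells have 73.9 to 223 CPM of Col6a3 and 80.0 to 190 CPM of Col8a1, while Col6a1 and Col6a2 there stay at 12.1 CPM or less.

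Among the 8 classes, basal cells held the hemidesmosome and anchoring fibril chains. Col17a1 (chromosome 19, 47646344 to 47692094, minus strand) was at 160, 170, 130 and 522 CPM in basal cells. It was at 1.39, 0.878, 0.984 and 19.5 CPM in luminal alveolar cells and had 0 counts in T and NK cells of the 4 gland libraries. Col7a1 was at 114, 89.8, 66.8 and 122 CPM in basal cells and 9.70 to 35.5 in fibroblasts, its next class. Neither gene's basal values overlapped another of the 8 classes. Keratinocyte-like cells were not among those 8 and had 43 and 64 cells in BPK 4NQO replicates 1 and 2. They had 173 and 586.5 CPM of Col17a1, above basal cells of the same libraries. Their Col7a1, at 7.32 and 73.3 CPM, was below basal cells.

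FACIT chains were shared by basal and luminal alveolar cells or by basal cells and fibroblasts. The type IX chains, known from cartilage, were epithelial: Col9a2 was at 170, 146, 138 and 139 CPM in basal cells and 24.6 to 34.0 in luminal alveolar cells. Col9a3 was at 158, 138, 153 and 119 CPM in basal cells and 38.9 to 48.6 in alveolar cells. Its highest value, 164 CPM, was in keratinocyte-like cells of BPK 4NQO replicate 2. The count ratio of Col9a2 to Col9a3 was 0.900 to 1.17 in basal cells and 0.570 to 0.872 in alveolar cells, without overlap. The remaining type IX chain, Col9a1, did not reach 50 CPM; it was at 31.3, 23.9, 24.0 and 38.9 CPM in alveolar cells and 19.9, 8.35, 8.89 and 20.6 in basal cells, above basal cells in each library. Unlike most collagens, Col9a2 and Col9a3 were not highest in replicate 2 in basal cells.

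Col14a1, a FACIT chain of dense connective tissue, was at 415, 506, 507 and 1047 CPM in fibroblasts and 257, 219, 186 and 417 in basal cells, 2 ranges that overlapped slightly across libraries. Within each library fibroblasts were higher. Col16a1 was at 256, 194, 257 and 380 CPM in basal cells, 68.8 to 156 in fibroblasts and 45.8 to 58.0 in alveolar cells. Col12a1 was at 76.7, 112, 150 and 302 CPM in fibroblasts and 62.2 to 139 in basal cells. The transmembrane chain Col13a1, found at cell-matrix contacts, was low in the gland, at 23.5, 15.2, 9.38 and 15.1 CPM in endothelial cells and 10.5 to 16.0 in fibroblasts.

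Within fibroblasts, collagens differed between cells with and without a UMI of Pi16 or Dpp4, markers of adventitial fibroblasts. The positive cells had more Col14a1, Col6a5 and Col6a6 and less Col13a1, Col18a1, Col15a1, Col27a1, Col4a1, Col4a2, Col8a1 and Col6a3. The type I and III chains were not called. Col14a1 was at 794, 824, 716 and 1378 CPM in positive cells and at 156, 307, 324 and 618 in negative cells, without overlap. Col18a1 was at 71.9, 198, 76.6 and 103 CPM in positive and at 359, 375, 201 and 360 in negative cells, also without overlap. Col15a1 was at 94.4, 198, 137 and 169 CPM in positive and 340, 270, 326 and 574 in negative cells.

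Of 21 members tested on 112 to 482 positive and 213 to 495 negative cells per library, 11 were called, 3 higher and 8 lower, against 12.1% of all genes (edgeR's quasi-likelihood test with library as block). The log2 fold change of Col14a1 was 1.54 (SE 0.16, adjusted p = 1.45e-06), that of Col6a5 1.52 (SE 0.22) and that of Col6a6 1.08 (SE 0.23). Col18a1 was at -1.63 (SE 0.17, adjusted p = 1.15e-06), Col15a1 at -1.39 (SE 0.17) and Col13a1 at -1.82 (SE 0.38). Col4a2 (-1.05, SE 0.15) and Col4a1 (-0.86, SE 0.12) fell together. The members' median log2 fold change was -0.24, that of all genes 0.00. Positive cells were deeper, with medians of 1671.5 to 4519.5 UMIs against 1354 to 3158. Without replicate 2, 5 members were called, the calls of Col13a1, Col27a1, Col6a3, Col6a6 and Col8a1 were lost, and Col6a5 was too low to be tested.

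**Figure D3:**
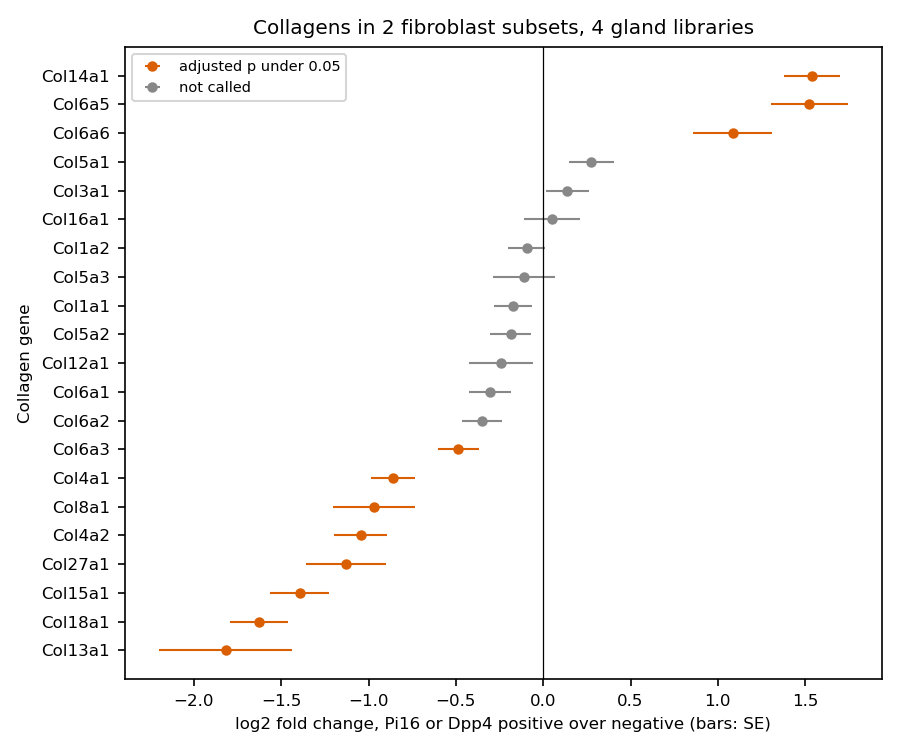
Points are log2 fold changes of 21 collagens, Pi16 or Dpp4 positive over negative fibroblasts, with bars of 1 standard error over 4 gland libraries and calls in orange. Col14a1, Col6a5 and Col6a6 lie to the right and the basement membrane chains Col18a1, Col15a1, Col4a2 and Col4a1 to the left, while Col1a1, Col1a2 and Col3a1 lie near 0.

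Within endothelial cells, the type IV and the type XV and XVIII chains went opposite ways between capillary and venous cells. Col4a1 was at 555, 676, 623 and 1717 CPM in capillary and 163, 244, 193 and 987 in venous cells, higher in capillary cells of every library. Col4a2 was at 357, 466, 460 and 1059 CPM against 143, 138, 126 and 499. Col18a1 was at 17.1, 35.4, 13.6 and 125 CPM in capillary and 56.1, 83.4, 104 and 321 in venous cells. It was lower in capillary cells of every library.

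Of 7 members tested, 5 were called by edgeR's quasi-likelihood test, against 32.7% of all genes. Capillary cells were higher for Col4a2 (log2 fold change 1.34, SE 0.15, adjusted p = 1.22e-07), Col4a1 (1.22, SE 0.15) and Col6a3 (0.90, SE 0.28, adjusted p = 0.0157). They were lower for Col18a1 (-1.88, SE 0.24, adjusted p = 1.30e-06) and Col15a1 (-0.59, SE 0.18, adjusted p = 0.0139). Col6a3 was no longer called without replicate 1 or without replicate 2, and Col15a1 without replicate 1.

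The BPK 4NQO replicates differed in collagen level, by a larger median ratio than over all genes. In fibroblasts all 19 members with at least 50 CPM were higher in replicate 2, by a median log2 ratio of 1.09, against 0.25 over 2901 genes of that level. The medians were 1.53 for 8 of 8 members in endothelial cells (all genes 0.08), 1.51 for 14 of 14 in pericytes (all genes -0.04) and 1.06, with 13 of 14 members higher, in basal cells (all genes 0.16). Of all genes of that level, 58.2% (fibroblasts), 52.9% (endothelial cells), 48.9% (pericytes) and 57.2% (basal cells) were higher in replicate 2. Col9a3 was the member that was lower in replicate 2 in basal cells. The background in T and NK cells moved in the same direction, since Col3a1 was at 8.06 CPM there in replicate 1 and 92.6 in replicate 2. Its part in the difference was not tested.

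The first comparison of conditions asks what 4NQO did to collagen transcripts in BPK glands. Replicate 1 was close to the vehicle library, and replicate 2 lay above it for most members. In fibroblasts the median log2 ratio to vehicle over 19 members was -0.07 in replicate 1 and 1.18 in replicate 2. Only 5 members were above vehicle in both replicates and 2 below it in both. Pericytes were the class in which both replicates were above vehicle for most members, 10 of 12, with medians of 0.65 and 2.28. The vehicle pericytes had few counts, 13 of Col1a1 and 51 of Col4a1. No share over all genes was taken for these counts of members, so they only describe the members.

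**Figure D4:**
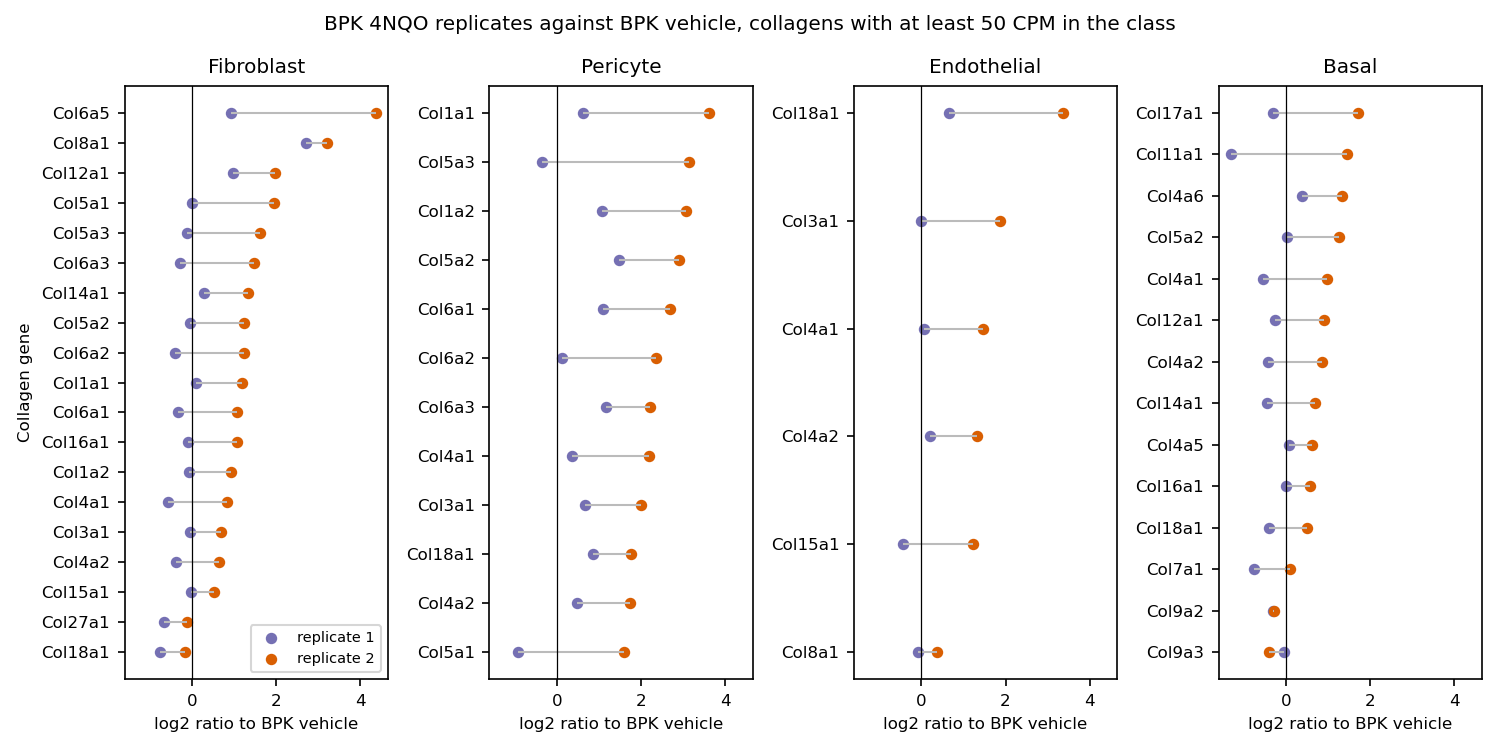
Each line joins the log2 ratios to BPK vehicle of BPK 4NQO replicate 1 and replicate 2 for a collagen with at least 50 CPM in the class. In fibroblasts replicate 1 has a median of -0.07 and replicate 2 of 1.18, and Col6a5, Col8a1 and Col12a1 stand at the top.

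Col8a1 and Col6a5 in fibroblasts had the widest gaps to vehicle. Col8a1 was at 9.15 CPM (16 counts, exact Poisson 95% interval 5.23 to 14.9) in vehicle and at 64.9 and 93.3 in the BPK 4NQO replicates, and PK 4NQO had 92.1. The 3 libraries with 4NQO lay above the vehicle library, but the call failed (log2 fold change 2.90, SE 0.97, adjusted p = 0.345). Col6a5 was at 8.01 CPM in vehicle and at 16.0 and 186 in the replicates (log2 fold change 3.36, SE 0.98, adjusted p = 0.130). Col12a1 was at 76.7 CPM in vehicle and at 150 and 302 in the replicates (adjusted p = 1.00).

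In edgeR's quasi-likelihood test, 1 of 153 member tests over 8 classes was called, and DESeq2 called none. The called member was Col23a1, a transmembrane chain, in endothelial cells: it had 0 counts in vehicle, 3.61 CPM in replicate 1 and 26.3 in replicate 2, and PK 4NQO had 6.32. The mean of the replicates was at least 9.55-fold above the floor of 3 counts in the vehicle library (adjusted p = 0.0333). With doublets kept, its adjusted p was 1 and the called member was instead Col1a1 in luminal alveolar cells (adjusted p = 0.0272). Alveolar Col1a1 had a level of 2.48 CPM in the vehicle library, beside 2.09 and 37.3 in replicates 1 and 2. It thus rested on the library whose T and NK cells had 89.0 CPM.

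The members tested and called, beside the percent of all genes called, were 0 of 29 in fibroblasts (0.276%), 1 of 20 in endothelial cells (0.332%), 0 of 17 in pericytes (0%), 0 of 27 in basal cells (0.282%), 0 of 28 in luminal alveolar cells (0.409%), 0 of 25 in hormone-sensing cells (0.178%), 0 of 4 in macrophages (0%) and 0 of 3 in T and NK cells (0%). At an unadjusted p under 0.05 there were 23 member tests in all. By class they were 3 in fibroblasts (330 of 10161 over all genes), 3 in endothelial cells (191 of 10245) and 2 in pericytes (61 of 4131). Basal cells had 3 (242 of 10988), alveolar cells 7 (279 of 12482) and hormone-sensing cells 5 (235 of 11817). The median standard error of a member's log2 fold change was 1.02 in fibroblasts and 1.23 in pericytes, so a change of 1 log2 unit was not detectable at this replication. The spread came from the BPK 4NQO pair alone, with 1 residual degree of freedom.

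The second comparison asks whether the Brca1 genotype changed collagen transcripts under 4NQO. PK 4NQO lay near BPK 4NQO replicate 1 and below replicate 2 for most members. In fibroblasts the median log2 ratio to PK 4NQO over 18 members was -0.20 in replicate 1 and 1.01 in replicate 2. In endothelial cells the medians were -0.19 and 1.35 and in pericytes -0.45 and 1.40. By these medians the replicates lay on opposite sides of the PK library, but not for every member. Above it in both replicates were 5 of 18 members in fibroblasts, 3 of 6 in endothelial cells and 3 of 14 in pericytes. In fibroblasts 1 member was below it in both. For these counts, too, no share over all genes was taken. No member was called by edgeR's quasi-likelihood test or by DESeq2 in 153 tests, and 17 had an unadjusted p under 0.05. Of these, 2 were in endothelial cells (110 of 10245 over all genes) and 3 in basal cells (210 of 10988). Alveolar cells had 8 (271 of 12482) and hormone-sensing cells 4 (199 of 11817).

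By class, the percent of all genes called was 0.00984% in fibroblasts (0 of 29 members), 0.0878% in endothelial cells (0 of 20), 0% in pericytes (0 of 17), 0.109% in basal cells (0 of 27), 0.208% in luminal alveolar cells (0 of 28), 0.169% in hormone-sensing cells (0 of 25), 0.0306% in macrophages (0 of 4) and 0% in T and NK cells (0 of 3). Treatment and genotype tests share the BPK 4NQO libraries. The PK library was also the only one counted with another Cell Ranger version, which cannot be told apart from genotype. Col1a1 in luminal alveolar cells came nearest, with an adjusted p of 0.0517, and was called with RLE factors (0.0493) and when the model held no other library (0.0457). It was at 2.09 CPM in PK 4NQO beside the replicate values given above, so the difference lay in replicate 2.

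The last comparison sets the tumor against BPK 4NQO glands. In epithelial cells as a whole, the tumor had more Col17a1, Col18a1, Col7a1 and Col13a1 and less Col4a5, Col4a6, Col9a1, Col9a2, Col11a1 and Col14a1. The epithelium itself differed: 984 of 1382 epithelial cells of the tumor were keratinocyte-like, while basal, alveolar and hormone-sensing cells were 7, 8 and 6. The keratinocyte-like gate found 43 and 64 cells in the BPK 4NQO glands. A change within a cell type and a change of cell types cannot be told apart in the sum over epithelium.

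Col17a1 was at 18.9, 16.8, 14.8 and 112 CPM in the epithelium of the glands and at 514 in the tumor. Every gland library was below the tumor, and the log2 fold change was 3.63 (SE 0.86, adjusted p = 4.95e-04). Col18a1 was at 12.9, 7.50, 10.2 and 36.0 CPM in the glands and at 238 in the tumor (log2 fold change 3.93, SE 0.77, adjusted p = 1.34e-05). Col7a1 was at 14.0, 9.74, 7.05 and 22.3 CPM and at 51.3 in the tumor (2.37, SE 0.64, adjusted p = 0.00305). Col13a1 had 1 count in BPK 4NQO replicate 1 and 0 in replicate 2 against 247 in the tumor, where it was at 5.82 CPM. The ratio of these levels was 278, and its interval from counting error ran from 49.8 to 10960.

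Of the 6 members called lower in the tumor, Col4a5, Col4a6, Col9a2 and Col11a1 had their highest gland mean in basal cells, Col9a1 in luminal alveolar cells and Col14a1 in fibroblasts. The other 4 members that reached 50 CPM and were highest in basal cells were not called lower: Col16a1 and Col9a3 were not called, and Col17a1 and Col7a1 were called higher. Col4a5 was at 22.7, 23.4, 20.6 and 45.3 CPM in gland epithelium and at 2.90 in the tumor (log2 fold change -2.97, SE 0.78, adjusted p = 0.00223). Col4a6 was at 13.1, 15.6, 13.0 and 30.6 CPM and at 1.96 in the tumor (-2.93, SE 0.76). Col11a1 was at 13.3 to 48.3 CPM and at 1.84 (-3.49, SE 0.79), and Col14a1 at 16.9 to 63.8 and at 3.70 (-2.87, SE 0.78). Col9a1 (-2.39, SE 0.73) and Col9a2 (-2.49, SE 0.76) fell, whereas Col9a3, at 38.5 and 45.1 CPM in the BPK 4NQO replicates and 26.8 in the tumor, was not called.

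In all, 10 of 36 members were called in epithelium (15.3% of all genes). All 10 were also called in each of the 7 alternative settings that could be tested. Between keratinocyte-like cells of tumor and glands, 0 of 18 members were called by edgeR's quasi-likelihood test (0.792% of all genes). At an unadjusted p under 0.05 there were 3 (348 of 6185 over all genes), and DESeq2 called none. In that class Col17a1 was at 173 and 586.5 CPM in the BPK 4NQO replicates and 579 in the tumor. Col18a1 was at 120, 238 and 268 CPM. Tumor and replicate 2 were close for both genes. Standard errors had a median of 1.03 on the log2 scale there, so this does not show equal levels.

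**Figure D5:**
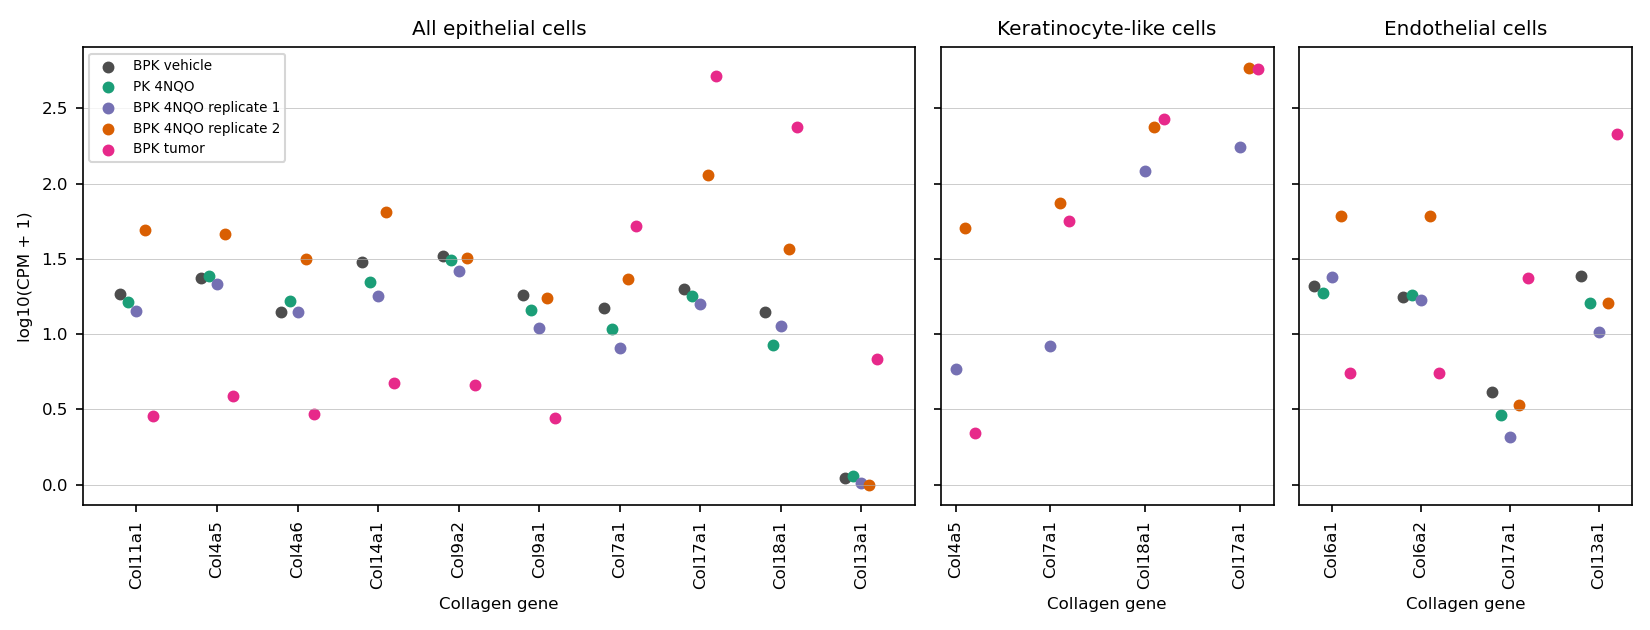
Points are log10(CPM + 1) of each library with at least 30 cells, for the collagens called in all epithelial cells, 4 collagens in keratinocyte-like cells and the collagens called in endothelial cells. The tumor is lowest for the first 6 genes and highest for the last 4 in epithelium, and has 214 CPM of Col13a1 in endothelial cells against 9.38 to 23.5 in the glands.

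In the vessels of the tumor the transmembrane chain Col13a1 (chromosome 10, 61838236 to 61979108, minus strand) rose. It was at 9.38 and 15.1 CPM in endothelial cells of the BPK 4NQO glands and at 214 CPM in the tumor (235 counts in 100 cells, exact Poisson 95% interval 187 to 243). The log2 fold change was 4.26 (SE 0.76, adjusted p = 8.90e-06), and Col13a1 was called in each of 7 alternatives, DESeq2 included. After thinning, 17.0% of tumor endothelial cells had a Col13a1 UMI against 1.05% and 0.524% in the replicates. Tumor fibroblasts did not share the rise, at 4.58 CPM against 16.0 and 10.5.

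Col6a1 and Col6a2 fell in tumor endothelium, each from 23.1 or 15.9 CPM in replicate 1 and 59.7 in replicate 2 to 4.55 CPM (5 counts). Their log2 fold changes were -3.02 (SE 0.90, adjusted p = 0.0291) and -2.87 (SE 0.89, adjusted p = 0.0387). DESeq2 called neither, at adjusted p-values of 0.231 and 0.338. The fibroblast marker Dcn was at 10.5 and 73.2 CPM in endothelial cells of the replicates and 12.7 in the tumor, so it was high in the same replicate, and its part was not tested. Col4a1 was at 522, 1379 and 1800 CPM and Col4a2 at 385, 828 and 1041 in replicates 1 and 2 and the tumor, and neither was called. In all, 4 of 21 members were called in endothelial cells (3.53% of all genes).

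Col17a1 was called higher in tumor endothelium (3.88, SE 1.13, adjusted p = 0.0241) and tumor fibroblasts (5.00, SE 1.10, adjusted p = 0.00176). It was at 22.7 CPM in tumor endothelial cells, 26.6 in tumor fibroblasts and 40.6 in tumor macrophages, against 0 to 3.23 in the same classes of the gland libraries. The keratin Krt5, a marker of epithelium, moved with it: it was at 112 CPM in tumor endothelial cells, 112 in tumor fibroblasts and 120 in tumor macrophages, and at 6.37 or less in these classes of the glands. The part of epithelial RNA in these 2 calls was not tested.

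In fibroblasts 2 of 30 members were called in the tumor (0.827% of all genes), Col17a1 and Col6a5. Col6a5 was at 6.41 CPM in the tumor against 16.0 and 186 (log2 fold change -3.58, SE 1.01, adjusted p = 0.0479). It rested on replicate 2, and 5 of 7 alternatives gave adjusted p-values of 0.055 to 0.53. Col8a1 and Col12a1 had their highest fibroblast levels in the tumor, at 326 and 447 CPM, but were not called. The fibrillar chains were within the range of the replicates or near it: Col1a1 was at 9326 CPM in the tumor and at 4027 and 8596 in the replicates, and Col3a1 at 11010 against 7896 and 13230. In macrophages 0 of 5 members were called (0.404% of all genes) by edgeR's quasi-likelihood test. There 1 had an unadjusted p under 0.05 (208 of 6688 over all genes), and DESeq2 called none.

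Most of the listed genes that fold, cut or cross-link collagen were higher in fibroblasts, the class with the most collagen. Of the 10 tested genes that cleave and cross-link procollagen, all were higher in fibroblasts (all genes: 27.6% higher and 19.8% lower), among them Pcolce2 (log2 fold change 9.31), the cross-linking oxidases Loxl1 (7.98) and Lox (7.54) and the procollagen protease Adamts2 (6.76). Of 20 genes of chain modification and folding, 17 were higher and 1 lower in fibroblasts, with P4ha3, a prolyl hydroxylase subunit, at 7.50 and the collagen chaperone Serpinh1 at 4.40. The list medians were 5.65 and 2.20, against -0.03 over all genes. All 8 small leucine-rich collagen binders were higher in fibroblasts, but Dcn and Lum among them had been used to gate those cells.

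In basal cells (all genes: 32.5% higher and 18.4% lower) 4 of 5 hemidesmosome partners of Col17a1 were higher, the integrin chains Itgb4 (3.36) and Itga6 (3.28), the linker Dst (2.67) and Cd151 (1.25). Of 16 basement membrane partners 11 were higher and 1 lower there, led by the laminin chains Lama1 (7.88), Lama3 (6.12) and Lamb3 (5.99). Hormone-sensing cells (all genes: 34.1% higher and 22.9% lower) had 5 of 5 hemidesmosome partners higher, while 7 of 16 basement membrane partners were lower, among them Sparc at -4.59, and Lama5 was higher at 3.08. The chaperone Serpinh1 was lower there (-2.74) although Col6a3 and Col8a1 were higher.

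No gene of the 8 partner lists was called for treatment or genotype. In tumor epithelium the laminin chains Lamb3 (4.40) and Lama3 (4.03) were called higher, and so was Itgb4 (3.51), beside Col17a1. The laminin chain Lama1 was called lower (-4.72). The basement membrane list had a median of 0.52 over 15 genes, against -0.12 over all genes. Over all genes 7.74% were called higher and 15.3% in either direction. Of the other lists, chain modification had 4 of 20 genes higher and 1 lower, cleavage and cross-linking 1 and 1 of 13, collagen receptors 2 and 0 of 8, and TGF-beta genes 4 and 3 of 12. The small leucine-rich binders had 0 higher and 2 lower of 7, and 0 of 6 dissociation stress genes were called. In tumor endothelium the basement membrane genes Lamb3 (3.30) and Nid2 (2.40) were higher, and Lamb3, like Col17a1, was also called higher in tumor fibroblasts (3.65).

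The 13 members that no class test held had 6 to 478 counts over all kept cells. The members were Col2a1, Col4a3, Col6a4, Col8a2, Col10a1, Col11a2, Col19a1, Col20a1, Col22a1, Col24a1, Col25a1, Col26a1 and Col28a1. None of them reached 50 CPM in a class with at least 30 cells of those 9. Cells gated by Schwann markers were not among the 9 classes and held more Col28a1, a chain known from peripheral nerve: it was at 32.7 and 175 CPM there, against 8.94 at most in those classes. They also had more Col8a1 than hormone-sensing cells, at 381 and 366.5 CPM. Their Col1a2 was at 2363 and 3615 CPM, and Dcn was at 719 CPM in the PK cells and 33.3 in those of replicate 2.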

How the data were processed

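The deposited UMI counts per gene and barcode of 5 libraries were used. The authors made these counts with Cell Ranger on mm10. The headers of the deposited matrices give version 5.0.1 except for PK 4NQO (3.0.2). PK 4NQO is the only PK library, so version and genotype cannot be told apart. The labels name 3′ v2 chemistry. Barcodes seen in replicate 2 of BPK 4NQO rarely recurred elsewhere, and whether this label holds for it was not tested. Barcodes with at least 300 genes and at most 20% mitochondrial counts were kept, and 2117 doublets were removed with scanpy 1.11.5 (Scrublet scores, 0.8% per 1000 barcodes). Cells were gated on at least 3 markers of 1 of 6 compartments (10 markers each, no collagens) and at least 2 times as many as of any other compartment. Sub-classes needed 2 markers, so class names stand for marker sets. Counts were summed per library and class with at least 30 cells. Sums were tested with edgeR 4.0.16 (quasi-likelihood, TMM, Benjamini-Hochberg over all genes, adjusted p under 0.05), with DESeq2 1.42.0 as an alternative. The scripts were tested on simulated data. The labels' 4NQO dose was not used.

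The members and gene lists were chosen with earlier results of these data known. Collagens with at least 50 CPM in a class were named, as were members called for treatment, genotype or tumor, and up to 4 called partners per list and comparison by size of change. Only BPK 4NQO had a second library, so the treatment, genotype and tumor tests had 1 residual degree of freedom. Intervals are exact Poisson at 95% and cover counting error only. Promoters came from RefSeq (GRCm38.p6), with 35 of 44 members matched, and gene positions from GENCODE for GRCm38, with 44 matched. No sample column was left unused.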

Additional observations from a re-analysis of the deposited data

How the results depend on the processing

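Among the called results that were followed, no direction reversed under any setting that was run. For members that were not called, the sign could depend on the BPK 4NQO replicate used. In fibroblasts only 5 of 19 members were above vehicle in both replicates and 2 below it in both. The count of member calls for treatment was 1, and DESeq2 gave 0. For genotype it was 0, and RLE factors and a model of only the libraries compared each gave 1 (Col1a1 in luminal alveolar cells); the cause was not tested. The class tests called 174, between 170 and 191 under the other settings and between 118 (without BPK 4NQO replicate 2) and 167 when 1 library was left out. The fibroblast subset had 11 calls, and 5 to 14 when 1 library was left out, with the lowest count again without replicate 2. The capillary comparison had 5 and 4 to 5, and the tumor comparison 16 and 12 to 16 over all settings.

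When a BPK 4NQO replicate was left out of treatment or tumor no residual degree of freedom remained, so values without a test were taken on log2(CPM + 1), where low genes have smaller changes. On that scale Col23a1 was at 4.69 without replicate 1 and 2.21 without replicate 2, and Col6a5 in tumor fibroblasts at -4.32 and -1.10. In tumor epithelium Col17a1 was at 2.88 and 5.32. For called single genes, 127 of 144 tumor values kept their call or, where untested, stayed near the main value, as did 68 of 75 fibroblast subset, 32 of 35 capillary and 5 of 9 treatment values (of the last, 2 lost the call and 2 moved). The 306 class values that were followed all kept their call, but they cover only 31 results, each member in 1 class, and not the other calls. No paired analysis was possible because only BPK 4NQO carried a second replicate number. Depth limits genes with few counts, such as Col13a1 with 1 count in BPK 4NQO epithelium.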
